A study of Mus musculus with 23 samples.

Results

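The 10 genes described here are markers of smooth muscle, the tissue of the muscularis beneath the colonic mucosa, and they were measured in RNA from isolated colonic epithelium. They were chosen by name as genes of the contractile apparatus (Acta2, Actg2, Myh11, Tagln, Cnn1, Des, Myl9, Lmod1, Mylk and Synpo2), as a measure of muscle carried along in the epithelial preparation. All 10 were found among the 24917 loci counted, each at 1 locus. The samples came from male C57BL/6 mice (C57BL/6J in the methods) placed on lard-based diets from 6 weeks of age for 43 weeks, with no genetic change in any group. LF mice received 10% fat throughout, HF mice 60% fat throughout, and HFLF mice 60% fat for 15 weeks and then 10% fat for 28 weeks. The whole colon was taken, epithelium was released with EDTA, and total RNA depleted of ribosomal RNA was sequenced. Batch 1 held 4 LF, 3 HF and 4 HFLF samples, and batch 2 held 4 LF, 3 HF and 5 HFLF samples. The labels do not say what a batch is, and the methods give fewer mice per regimen than there are samples over both batches, so p-values measure the spread between these samples and it is not established that all 23 are separate mice.

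Smooth muscle cells contract when myosin light chain kinase, the product of Mylk, phosphorylates the regulatory light chain (Myl9) of a myosin whose heavy chain is encoded by Myh11. That myosin pulls on filaments of smooth muscle actin, alpha (Acta2) and, in the gut wall, gamma (Actg2). Calponin (Cnn1) and transgelin (Tagln) bind these filaments, leiomodin (Lmod1) nucleates them, desmin (Des) forms the intermediate filaments that anchor them, and Synpo2 encodes an actin-bundling protein. Many of these genes are known targets of serum response factor (SRF) and its cofactor myocardin, which act through the CArG box in their promoters. Mylk is also known in epithelial cells, where its kinase acts on the actomyosin ring at the tight junction.

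By the file's mm10 coordinates, the actin genes lie at chr19:34240336-34255373 (Acta2, minus strand) and chr6:83512909-83536251 (Actg2, minus). The myosin genes lie at chr16:14194527-14291408 (Myh11, minus) and chr2:156775464-156781657 (Myl9, plus), and Mylk lies at chr16:34784950-35002434 on the plus strand. The other loci are chr9:45929628-45936058 (Tagln, minus), chr9:22099253-22109221 (Cnn1, plus), chr1:75360292-75368579 (Des, plus), chr1:135324813-135368065 (Lmod1, plus) and chr3:123076519-123236149 (Synpo2, minus). The loci of Tagln, Cnn1, Des and Mylk overlap other loci on the opposite strand (Pcsk7 for Tagln). Whether counting used strand was not given in the sources used here, so reads of such partners may not be told apart. Stretches of 76 bases, the read length, from the longest transcript of each of the 10 genes were sought in transcripts of other genes. None occurred there in the same orientation, the other actins included. The reverse complement was not searched, so this result does not cover the overlapping loci on the opposite strand.

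RefSeq promoters (GRCm38.p6) were at hand for 7 of the 10 genes, all but Actg2, Myh11 and Tagln. A CArG box was sought on both strands in the 250 bases before the start, and 1 of the 7, Myl9, held it, beside 1.47% of all 32851 promoters. A near match, with 1 of the 6 core bases other than A or T, was held by Myl9 and Acta2, beside 7.24% of all promoters. The Myl9 stretch, shown because it was the promoter with the full box, lies at chr2:156775283-156775394 on the plus strand, with the box (161 to 152 bases before the start) and the near match (99 to 90 bases before it) in capitals:
Myl9: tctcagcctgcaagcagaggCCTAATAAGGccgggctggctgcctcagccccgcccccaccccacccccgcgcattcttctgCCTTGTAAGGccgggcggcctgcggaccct
The near matches of Acta2 lay 84 to 75 and 34 to 25 bases before its start. These matches are letters in a window and no factor binding was measured.

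The samples held 29189922 to 65320947 counts on genes, so that 3 counts correspond to 0.0459 to 0.103 CPM (counts scaled to a common library total, by TMM within the batch). Such floors cover counting error only. Markers of colonic epithelium, the tissue the label names, summed to between 28500 and 44200 CPM per sample. Among them were Epcam, Krt8, Vil1 and Muc2, and 11 of 11 were kept in every fit. The 10 genes fell into a low and variable set of 9 and a single abundant gene, Mylk. Per kilobase of exon, the median level over the 23 samples was 9.59 CPM per kb for Mylk, against 0.526 for Myh11, 0.464 for Myl9, 0.455 for Acta2, 0.432 for Tagln, 0.252 for Actg2, 0.208 for Des, 0.167 for Cnn1, 0.0369 for Synpo2 and 0.021 for Lmod1. The ranges over samples of the 9 overlapped, and the lowest Mylk level, 7.26 CPM per kb, lay above the highest level of any of the 9, 3.65 for Tagln.

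The level of the 9 genes differed greatly between samples of one diet. Summed over the 9, it was 1.66, 4.12, 10.5 and 12.6 CPM in LF 1 to 4 of batch 1, 11.8, 11.3 and 0.654 CPM in HF 1 to 3, and 27.7, 56.1, 2.62 and 21.7 CPM in HFLF 1 to 4. In batch 2 it was 23.1, 8.41, 34.8 and 6.89 CPM in LF 1 to 4, 5.52, 1.01 and 3.91 CPM in HF 1 to 3, and 17.8, 2.44, 2.42, 12.9 and 7.69 CPM in HFLF 1 to 5. HF 3 of batch 1, with 29 counts on the 9 genes, was the lowest sample, and HFLF 2 of batch 1, with 2198 counts, was the highest. In batch 1 the groups overlapped throughout, whereas in batch 2 the 3 HF samples lay below the 4 LF samples. In such bulk samples fewer muscle cells and less RNA per cell cannot be told apart.

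**Figure D1:**
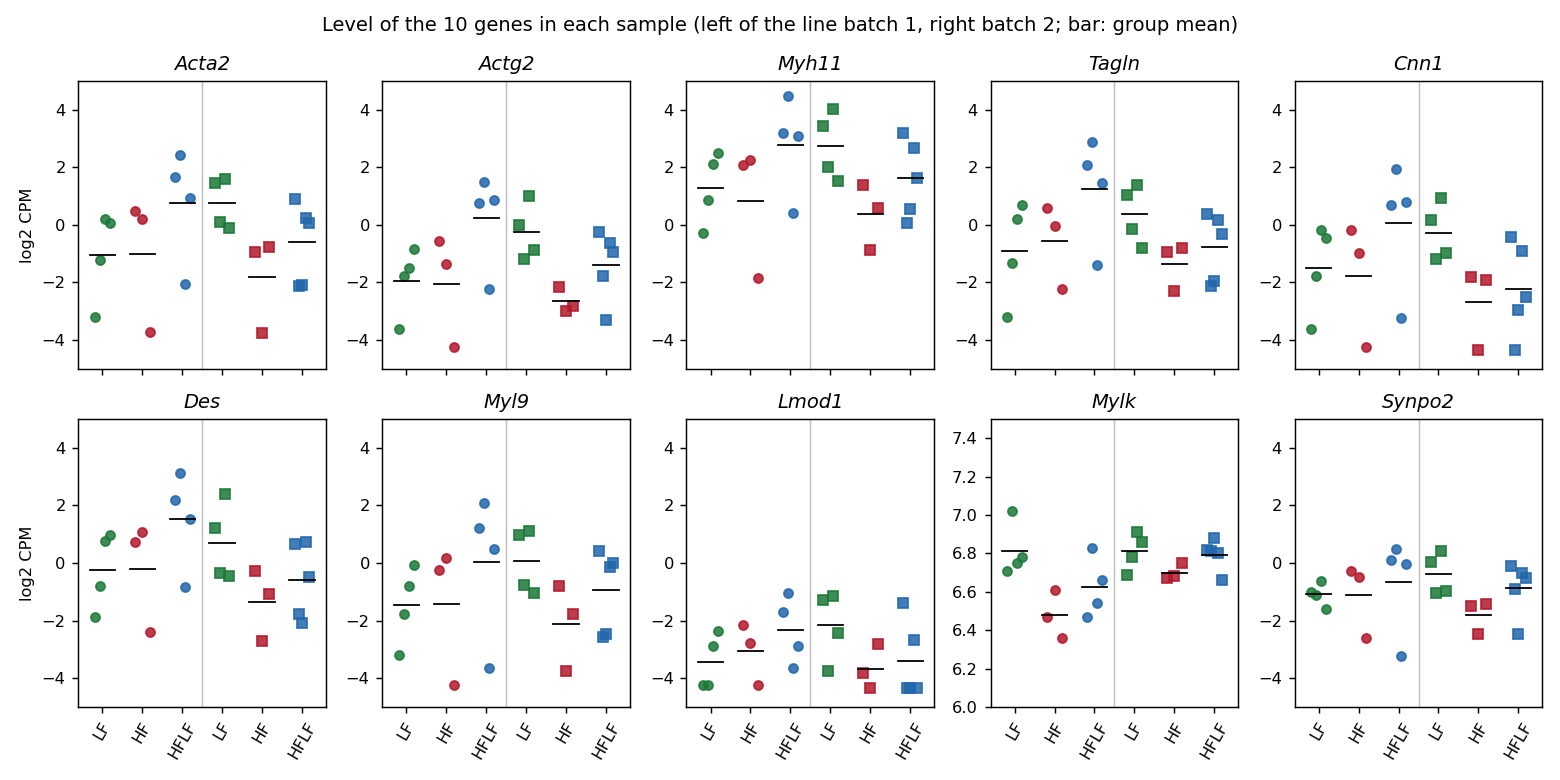
Level of each gene (log2 CPM, with 2 counts added before the log) in each sample, by diet and batch, with LF in green, HF in red and HFLF in blue, circles for batch 1, squares for batch 2 and a bar at the group mean. Mylk has its own, narrower axis. Most of the other 9 genes spread over several log2 units within most groups, and Synpo2 less, with -1.59 to -0.62 in LF samples of batch 1. HF 3 of batch 1 lies lowest or near the lowest in each of the 9.

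Single genes followed the sum. Myh11 itself made up 33% to 59.3% of the counts on the 9 genes in a sample, so its likeness to the sum is partly built in. Myh11, the smooth muscle myosin heavy chain, was at 0.776, 1.75, 4.34 and 5.58 CPM in the LF samples of batch 1, 4.16, 4.68 and 0.225 CPM in its HF samples and 9.16, 22.3, 1.27 and 8.46 CPM in its HFLF samples. In batch 2 the LF samples had 10.9, 4, 16.5 and 2.82 CPM, the HF samples 2.53, 0.494 and 1.47 CPM, and the HFLF samples 9.23, 0.995, 1.44, 6.32 and 3.07 CPM. Thus HFLF 2 was the highest and HF 3 the lowest sample of batch 1, and LF 3 and HF 2 took those places in batch 2. Des, the muscle intermediate filament, ranged from 0.135 to 8.76 CPM in batch 1 (coefficient of variation 112%, n = 11) and from 0.104 to 5.22 CPM in batch 2 (118%, n = 12), with the same samples at either end. Across the 9 genes this coefficient lay between 62.3% for Synpo2 and 125% for Lmod1, both in batch 2. For Mylk it was 13.5% in batch 1 and 5.88% in batch 2. Counts at the low end were few. In HF 3 of batch 1, Actg2, Cnn1, Myl9 and Lmod1 had 0 counts, and Lmod1 had 3 counts or fewer in 7 of 11 samples of batch 1 and 6 of 12 of batch 2. The fitted biological coefficient of variation was 0.617 to 1.04 in batch 1 (8 genes) and 0.413 to 0.936 in batch 2 (9 genes), while Mylk had 0.109 and 0.0663 and all genes together 0.158 and 0.102.

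The low genes moved as a set from sample to sample, and a relation of Mylk to them was not detected. Log2 CPM was correlated with that of Myh11 within each batch, in 18 relations, with permutation tests of 100000 resamples (two-sided) and Benjamini-Hochberg adjustment. For the 8 genes other than Mylk, Pearson's r was 0.78 to 0.99 in batch 1 (n = 11, highest adjusted permutation p 0.00521) and 0.83 to 0.97 in batch 2 (n = 12, highest adjusted permutation p 0.00112). Spearman's rho was 0.78 to 0.99 and 0.84 to 0.99, with highest adjusted permutation p of 0.0073 and 0.0017. Without the 2 samples farthest from the median Myh11 level (HF 3 and LF 1 of batch 1, LF 3 and HF 2 of batch 2), r was 0.81 to 0.99 and 0.77 to 0.95. For deviations from the mean of each diet, r was 0.81 to 0.99 and 0.80 to 0.97. Mylk had r = 0.31 and rho = 0.26 in batch 1 (adjusted permutation p 0.378 and 0.461) and r = 0.28 and rho = 0.22 in batch 2 (adjusted permutation p 0.378 and 0.5), and r was -0.03 and -0.23 without the 2 farthest samples. For deviations from the diet means, r of Mylk was 0.49 (adjusted permutation p 0.132) in batch 1 and -0.07 (adjusted permutation p 0.819) in batch 2. Both genes of a point come from 1 library and share its depth.

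**Figure D2:**
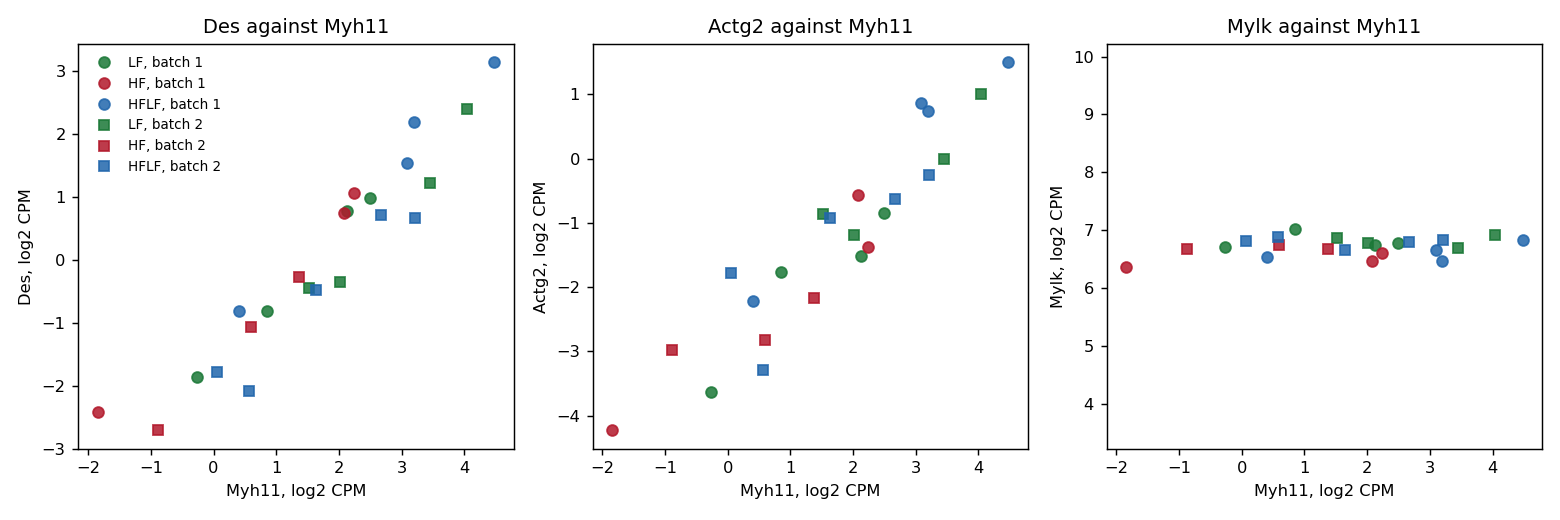
Des, Actg2 and Mylk against Myh11 in each of the 23 samples (both axes log2 CPM), coloured by diet, with circles for batch 1 and squares for batch 2. Des and Actg2 rise along with Myh11 over the whole range, while Mylk stays between 81.8 and 130 CPM, on an axis that spans 7 log2 units.

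HF and LF samples were compared first, within each batch, to ask whether high-fat feeding went with a different muscle signal in the preparation. In batch 2 all 10 genes had lower fitted levels in HF than in LF samples, with a median log2 fold change of -2.26 (all genes -0.01), and 1 of the 10, Actg2, passed the test. A call required a fold change above 1.2 and, in edgeR's quasi-likelihood test, an adjusted p under 0.05 (Benjamini-Hochberg over all genes), which 7.44% of all genes tested met in this comparison. Actg2, the enteric gamma actin, was at 0.948, 0.392, 1.97 and 0.504 CPM in LF 1 to 4 and 0.173, 0.078 and 0.0917 CPM in HF 1 to 3, which are 8, 3 and 6 counts. Every HF sample lay below every LF sample, and the log2 fold change was -3.01 ± 0.73 (SE, edgeR adjusted p 0.035). The call was lost without LF 1 (edgeR adjusted p 0.0843), LF 3 (0.1), HF 2 (0.174) or HF 3 (0.0937), and 8 of the 10 genes were called without LF 4, where 17.9% of all genes were. Without the low-count filter 2 genes were called (5.47% of all genes), and with only the LF and HF samples in the fit 3 of 9 genes were (7.82% of all genes). By DESeq2, which gave an adjusted p to 2 of the 10 genes here (Actg2 was not among them), 1 was called, Myh11, beside 15.3% of all genes.

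The next genes missed the threshold by little. Myh11 fell short with a log2 fold change of -2.48 ± 0.76 (SE, edgeR adjusted p 0.0535). Acta2, the alpha actin, was at 2.66, 1.03, 2.93 and 0.87 CPM in LF 1 to 4 of batch 2 and 0.477, 0.026 and 0.535 CPM in HF 1 to 3, with no overlap and a log2 fold change of -2.31 ± 0.73 (SE, edgeR adjusted p 0.0581). The actin-binding genes Tagln (-1.86 ± 0.64), Cnn1 (-2.50 ± 0.84) and Synpo2 (-1.57 ± 0.53) had edgeR adjusted p of 0.0715, 0.0681 and 0.0672. Their highest HF levels, 0.52, 0.238 and 0.321 CPM, lay under their lowest LF levels of 0.526, 0.392 and 0.441 CPM. For Tagln that gap was a small part of the spread within LF. Des, Myl9 and Lmod1 overlapped between the groups, with log2 fold changes of -2.30, -2.18 and -2.22 and edgeR adjusted p of 0.0774, 0.0866 and 0.178. At an unadjusted p under 0.05, 8 of the 10 genes were lower, beside 17.1% of all genes, and 6 of the 10 did not overlap between the groups (all HF below all LF), beside 13.5% of all genes. These genes move together between samples, so their counts do not stand for as many separate observations.

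In batch 1 the 9 genes that passed the low-count filter (all but Lmod1) gave no such difference. By edgeR 0 of 9 were called, as was 0% of all genes tested, and by DESeq2 0 of 9, where 3.6% of all genes were called. The median log2 fold change was 0.19, with 6 genes above 0 and 3 below, and it ran from -0.33 (without HF 1) to 0.74 (without HF 3) as single samples were left out. Myh11 had a log2 fold change of -0.06 (95% interval -1.99 to 1.87). Acta2 was at 0.0555, 0.378, 1.08 and 1 CPM in LF 1 to 4 and 1.34, 1.09 and 0.0225 CPM in HF 1 to 3, so that HF 1 and HF 2 lay above every LF sample and HF 3 below. HF 2 and LF 3 were nearly equal, however, and HF 3 and LF 1 held 1 and 2 counts, under the floor of 3. Without HF 3 the log2 fold change of Acta2 was 0.94, against 0.35 with it. Mylk was the 1 gene at an unadjusted p under 0.05 (lower, beside 10.2% of all genes) and the 1 gene without overlap (all HF below all LF, beside 7.33% of all genes). It was at 104, 130, 108 and 110 CPM in LF 1 to 4 and 88.7, 97.8 and 81.8 CPM in HF 1 to 3, with a log2 fold change of -0.34 ± 0.11 (SE, edgeR adjusted p 0.163). In batch 2 Mylk was at 103, 110, 120 and 116 CPM in LF samples and 102, 102 and 108 CPM in HF samples, and the difference of -0.11 ± 0.06 (SE, edgeR adjusted p 0.229) was within the spread. Lmod1, fitted without the filter, had 0.61 ± 1.13 in batch 1 (SE, edgeR adjusted p 0.806).

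The difference between the batches was tested as an interaction in a fit of the 6 groups. The change from LF to HF in batch 2 minus that in batch 1 had a median of -2.45 on the log2 scale, and 0 of the 10 genes passed an edgeR adjusted p under 0.05, as 0% of all genes did. DESeq2 called 0 as well. Actg2 alone was at an unadjusted p under 0.05 (-3.26 ± 1.37 SE, edgeR adjusted p 0.742), beside 3.36% of all genes that were lower at that level. The LF samples of batch 2 had higher fitted levels than those of batch 1 for 9 of the 10 genes, with a median log2 fold change of 1.21, or 0.68 without LF 3 of batch 2. By edgeR 0 of the 10 were called there, beside 19.1% of all genes. By DESeq2 0 of the 9 with an adjusted p were called, beside 20.4% of all genes. At an unadjusted p under 0.05 that was 1 gene, Actg2 (1.77 ± 0.81 SE, edgeR adjusted p 0.119), beside 18.1% of all genes that were higher.

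**Figure D3:**
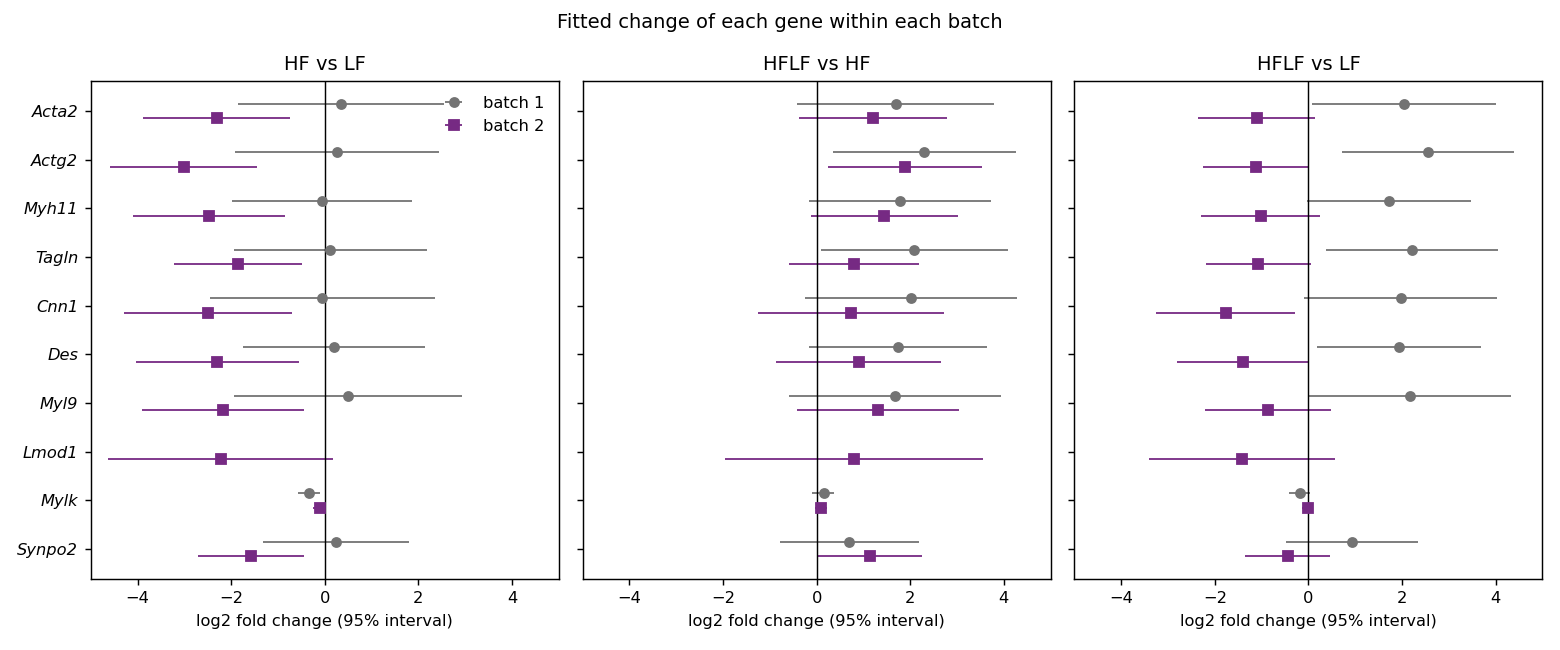
Fitted log2 fold change of each gene with its 95% interval, batch 1 in grey and batch 2 in purple, for HF against LF, HFLF against HF and HFLF against LF; Lmod1 did not pass the filter in batch 1. The 9 low genes lie left of 0 in batch 2 and near 0 in batch 1 for HF against LF, right of 0 in both batches for HFLF against HF, and on opposite sides for HFLF against LF.

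The HFLF samples ask whether the muscle signal of mice returned to low fat resembled that of HF or of LF mice. Against HF, all 9 genes in batch 1 and all 10 in batch 2 had higher fitted levels in HFLF samples, with medians of 1.74 and 1.02 on the log2 scale, but by edgeR none was called in either batch. The median was 1.07 without HFLF 2 in batch 1 and 0.61 without HF 2 in batch 2. The background of calls was 0.00693% in batch 1 and 14.5% in batch 2. Actg2 was at 1.63, 2.78, 0.162 and 1.77 CPM in HFLF 1 to 4 of batch 1 and 0.626, 0.334 and 0 CPM in its HF samples. In batch 2 it was at 0.794, 0.241, 0.0532, 0.597 and 0.475 CPM in HFLF 1 to 5. The groups overlapped in both batches through HFLF 3, and the log2 fold change was 2.29 ± 0.90 (SE, edgeR adjusted p 0.423) in batch 1 and 1.89 ± 0.77 (SE, edgeR adjusted p 0.0889) in batch 2. At an unadjusted p under 0.05, 2 genes were higher in batch 1 (Actg2 and Tagln, beside 4.81% of all genes) and 2 in batch 2 (Actg2 and Synpo2, beside 20.3%). DESeq2 called 0 in batch 1, beside 0.0861% of all genes, and 1 of the 8 tested in batch 2 (Actg2), beside 18.5% of all genes. By edgeR, 2 genes were called in batch 2 without HFLF 3, beside 14.8% of all genes.

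Against LF, the fitted levels of the HFLF samples had opposite signs in the 2 batches, with no gene called in either. In batch 1, 8 of 9 genes had higher fitted levels in HFLF samples, with a median of 1.97 on the log2 scale, or 1.29 without HFLF 2. By edgeR 0 of 9 were called (0% of all genes), and 5 of 9 were higher at an unadjusted p under 0.05 (Acta2, Actg2, Tagln, Des and Myl9, beside 2.5% of all genes). Tagln, the actin-binding transgelin, was at 0.0555, 0.344, 1.11 and 1.56 CPM in LF 1 to 4 and 4.2, 7.25, 0.324 and 2.68 CPM in HFLF 1 to 4. All but HFLF 3 lay above every LF sample, and the log2 fold change was 2.22 ± 0.85 (SE, edgeR adjusted p 0.792). In batch 2 all 10 genes had lower fitted levels in HFLF than in LF samples, with a median of -1.09 (-0.48 without LF 3), and 0 of 10 were called by edgeR (0.00696% of all genes). There Tagln was at 1.99, 0.858, 2.56 and 0.526 CPM in LF samples and 1.25, 0.181, 0.213, 1.09 and 0.756 CPM in HFLF samples, which overlapped. Cnn1 alone was at an unadjusted p under 0.05 (-1.76 ± 0.70 SE, edgeR adjusted p 1), beside 2.5% of all genes that were lower. DESeq2 called 0 in either batch, beside 0.0208% of all genes in batch 1 and 0.0945% in batch 2. An interaction added after this contrast had been seen gave a median difference between the batches of -3.17, with 0 of 10 genes called by edgeR or DESeq2 (0% of all genes by edgeR) and 8 of 10 lower at an unadjusted p under 0.05, beside 3.67% of all genes. Actg2 had a difference of -3.68 ± 1.05 (SE, edgeR adjusted p 0.632).

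With both batches in one fit and batch as a covariate, 0 of the 10 genes were called between any diets by edgeR. DESeq2 also called 0. It gave an adjusted p to 9 of the 10 genes for HF against LF and to 7 for HFLF against HF. For HF against LF the median was -1.17, or -0.68 without LF 3 of batch 2, and 17.8% of all genes were called (19.9% by DESeq2). Mylk had an edgeR adjusted p of 0.0198, but its log2 fold change of -0.22 ± 0.07 (SE) was under the required fold change. With Mylk and Actg2, 2 genes were lower at an unadjusted p under 0.05, beside 19.1% of all genes. For HFLF against HF the median was 1.5 and 10.2% of all genes were called (13.7% by DESeq2), and 3 genes (Actg2, Myh11 and Tagln) were higher at an unadjusted p under 0.05, beside 17.2% of all genes. Actg2 came nearest (2.10 ± 0.75 SE, edgeR adjusted p 0.0554), and 1 gene was called without HFLF 3 of batch 1, HFLF 2 of batch 2 or HFLF 3 of batch 2. For HFLF against LF the median was 0.16 (-0.1 to 0.58 with single samples left out), 0% of all genes were called and 0 of the 10 genes were at an unadjusted p under 0.05, beside 4.07% of all genes in either direction.

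Genes with a pattern like that of the 10 were ranked by Pearson's r over the 23 samples between deviations of log2 CPM from the mean of the sample's diet and batch. Other genes were set against the mean of the 10, and each of the 10 against the mean of the members other than itself. The 9 low genes themselves had r of 0.82 to 0.97 and Mylk had 0.27. Of 14725 genes, the 10 others with the highest r were Adamdec1 (0.97), Col6a1 (0.96), Synm, Tnc and Col6a2 (0.95 each), Pgm5, C1qc, Angptl2 and Tns1 (0.94 each) and Mmp2 (0.93), while the median over all genes was 0.02. Col6a1 and Col6a2 encode chains of collagen VI, Tnc and Mmp2 a matrix glycoprotein and a matrix protease, and Synm an intermediate filament protein that partners desmin. These genes share libraries and depth with the 10, and r is given as a description.

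Markers of other cells of the gut wall moved with the mean of the 10 genes, Mylk included, to unequal degrees. For fibroblast genes the median r was 0.87 (9 genes, from 0.45 to 0.96), for enteric neurons 0.65 (4 genes), for SRF and its cofactors 0.61 (3 genes), for pericytes 0.54 (6 genes), for smooth muscle genes beyond the 10 it was 0.52 (19 genes), for interstitial cells of Cajal 0.41 (3 genes) and for endothelium 0.37 (4 genes). Immune cells had -0.01 (5 genes, from -0.27 to 0.75 for the macrophage gene Csf1r), striated muscle -0.03 (2 genes), adipocytes -0.09 (2 genes) and colonic epithelium -0.33 (11 genes, from -0.66 to 0.72 for Muc2). C1qc, among the 10 genes with the highest r, is also known from macrophages. The fibroblast list summed to 14.8 to 47.3 CPM in the LF, 8.27 to 23.4 CPM in the HF and 10.2 to 32.4 CPM in the HFLF samples of batch 2. In batch 1 it summed to 19.5 to 37.4, 5.99 to 39.1 and 17.2 to 70.4 CPM, and HF 3 held the lowest value. Its part in the differences of the 9 genes was not tested. Smooth muscle genes beyond the 10 summed to 468 to 542 CPM in every sample, most of it Tpm1 (mean 291 CPM), a tropomyosin, Kcnma1 (44.4 CPM) and Flna (40.4 CPM), none of which is particular to muscle.

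**Figure D4:**
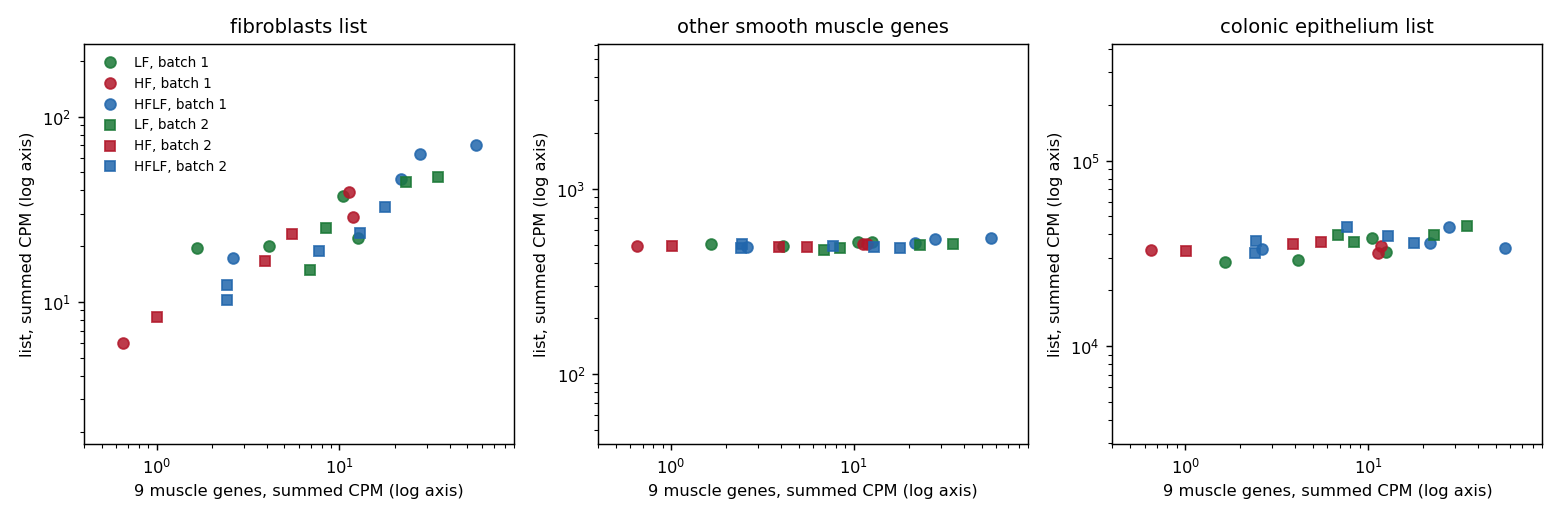
Summed CPM of the fibroblast list, of the other smooth muscle genes and of the colonic epithelium list against the summed CPM of the 9 low genes in each of the 23 samples, on log axes that span the same ratio. The fibroblast sum rises with the 9 genes, from 5.99 CPM in HF 3 of batch 1 to 70.4 CPM in HFLF 2 of batch 1, and the other sums stay nearly level.

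Of the other smooth muscle genes, 3 of 19 tested fell in HF samples of batch 2, 0 rose and 16 were not called, with a median log2 fold change of -0.34, where 7.44% of all genes were called. They were Pgm5 (-2.63 ± 0.71 SE, edgeR adjusted p 0.0404), whose product sits at adhesion sites, the LIM protein gene Pdlim3 (-2.03 ± 0.60, edgeR adjusted p 0.0491) and the tropomyosin gene Tpm2 (-1.23 ± 0.36, edgeR adjusted p 0.0486). Pgm5 fell from 0.772 ± 0.558 CPM (SD, n = 4) in LF to 0.119 ± 0.109 CPM (SD, n = 3) in HF samples. Of SRF and its cofactors, 1 of 3 tested fell, Srf itself (-0.47 ± 0.10 SE, edgeR adjusted p 0.0242), from 76.5 ± 10.7 CPM (SD, n = 4) to 55.1 ± 4.22 CPM (SD, n = 3). Of 2 striated muscle genes tested, Acta1, the skeletal alpha actin and an SRF target, fell (-1.47 ± 0.18 SE, edgeR adjusted p 0.00169). The other, Mylpf, was not called, with a higher mean in HF (1.1 ± 0.056 CPM, SD, n = 3) than in LF samples (0.872 ± 0.189 CPM, SD, n = 4). The myosin heavy chain genes Myh1 and Myh4 had 0 counts in every HF and HFLF sample and in every LF sample of batch 1. In LF samples of batch 2 their means were only 0.0673 ± 0.135 and 0.00673 ± 0.0135 CPM (SD, n = 4). Of 2 adipocyte genes tested, Plin4, of a lipid droplet protein, fell (-1.46 ± 0.39 SE, edgeR adjusted p 0.0388). The other, Cidec, was not called, with a higher mean in HF (8.98 ± 0.866 CPM, SD, n = 3) than in LF samples (7 ± 1.92 CPM, SD, n = 4).

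The remaining lists had no call between HF and LF samples of batch 2, where 7.44% of all genes were called. In fibroblasts 0 of 9 genes passed, although the median was -1.01, and the collagen genes Col3a1 and Col1a2 had -1.20 ± 0.49 and -0.98 ± 0.46 (SE, edgeR adjusted p 0.111 and 0.154). In colonic epithelium 0 of 11 passed, with a median of 0.07, and the mucin gene Muc2 and the keratin gene Krt8 had -0.56 ± 0.20 and 0.13 ± 0.09. In interstitial cells of Cajal 0 of 3 passed (Ano1 0.04 ± 0.10, Kit -0.28 ± 0.09). In LF samples of batch 2 Ano1 and Kit had means of 285 and 140 CPM, against 8.54 CPM for Myh11. Which cells those reads came from was not tested. In pericytes 0 of 5 passed (Pdgfrb 0.00 ± 0.13, Cspg4 0.23 ± 0.16). In endothelium it was 0 of 3 (Vwf -0.43 ± 0.14, Pecam1 -0.18 ± 0.16), in immune cells 0 of 4 (Ptprc 0.22 ± 0.13, Itgam -0.10 ± 0.10) and in enteric neurons 0 of 3 (Ret -0.03 ± 0.19, Snap25 -0.11 ± 0.17). In batch 1 no gene of any of these lists was called between HF and LF samples, as 0% of all genes were called there.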

How the data were processed

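Ribosomal RNA-depleted, stranded libraries of mouse colonic epithelium were sequenced in pairs of 76 bases. The authors deposited counts, whole numbers of reads per gene locus in each of the 23 samples, without normalization. By the methods and the submitters' processing notes, reads were trimmed with cutadapt 1.2.1, mapped to mm10 with STAR 2.5 and counted with featureCounts 1.5.0-p1. The annotation and the handling of strand and of multimapped reads were not given in the sources used here. The depth of 29189922 to 65320947 counts sets the floors given above.

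Groups and replicate numbers were read from the sample titles. Counts were fitted with edgeR 4.0.16 (R 4.3.3) with TMM scaling and filterByExpr, which kept 14428 genes in batch 1, 14377 in batch 2 and 14725 over both. Within a batch the 3 groups shared one quasi-likelihood fit, and fits over both batches had batch as a covariate or 6 groups. P-values were adjusted by Benjamini-Hochberg over all genes of a fit. Standard errors were the log2 fold change divided by the square root of F. Scripts were tested on simulated data. Alternatives were DESeq2 1.42.0, median-of-ratios size factors, library totals, no filter, only the groups compared, a replicate block, limma 3.58.1 with same-numbered samples of a diet as 1 mouse, and each sample left out. The interaction for HFLF against LF was added after its values were seen.

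The 10 genes and the 12 other lists were chosen with earlier results of these data known. All 10 genes are named. From other lists, up to 4 called genes by size of change are named, or else the 2 with the highest mean CPM, and for likeness the 10 genes with the highest r. Tpm1, Kcnma1, Flna, Mylpf and Cidec, the promoter near matches and the examples of epithelial markers were named outside this rule. Of the immune list, 6 of 7 genes were found by symbol. The result of 1 list is not reported here. Exon lengths and transcripts were those of GENCODE for mm10.

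Same-numbered samples of different diets had correlations of their deviations of -0.35 to 0.36 (median 0.06) in batch 1 and -0.11 to 0.36 (median 0.08) in batch 2. As a working rule, a pairing by number was considered where every same-numbered pair of 2 diets was over 0.1. That held for HF and HFLF of batch 1 (0.109 to 0.364, 3 pairs). It did not hold for LF and HF of batch 2 (0.047 to 0.118, 3 pairs) or any other diets. Different-numbered samples of different diets ran from -0.42 to 0.43 in batch 1 and from -0.3 to 0.26 in batch 2, so a pairing is not established for any diets.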

Additional observations from a re-analysis of the deposited data

How the results depend on the processing

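In batch 2 and over both batches, some counts of called genes changed with 1 sample or 1 setting. For HF against LF in batch 2, where 1 gene was called, the count was 2 without the filter on low counts, 3 with only the 2 groups compared, and 0 to 8 when 1 sample was left out. For HFLF against HF in batch 2, where 0 were called, it was 1 by DESeq2 and 0 to 2 with 1 sample left out, and over both batches it was 0 to 1. The cause was not tested. In all, 184 of 197 counts of called genes or other summary values under an alternative were near the value given, and 13 were not. Of 1621 values of single genes, 1563 kept their direction and side of the threshold, 23 passed it only under the alternative, 4 missed it there, and 31 changed sign.

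The sign changes concern values near 0 that were not called. For HF against LF in batch 1, leaving out 1 sample gave log2 fold changes from -0.26 to 0.94 for Acta2, -0.81 to 0.87 for Actg2, -0.5 to 0.5 for Myh11, -0.6 to 0.74 for Tagln, -1.1 to 0.56 for Cnn1, -0.3 to 0.74 for Des, -0.09 to 1.15 for Myl9 and -0.21 to 0.74 for Synpo2. Mylk ranged from -0.06 to 0.02 for HFLF against LF in batch 2 and from -0.07 to 0.03 between the LF samples of the batches. Its correlation with Myh11 was 0.49 in batch 1 and -0.07 in batch 2 for deviations from the diet means, and -0.03 and -0.23 in batches 1 and 2 without the 2 farthest samples.

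With the replicate number as a block, 7 of 10 genes were called for HF against LF in batch 2, where 14.5% of all genes were, and the block changed no other count of called genes within or over the batches. In batch 1 it gave log2 fold changes of -0.19 for Acta2, -0.1 for Tagln, -0.23 for Des and -0.08 for Synpo2, and in batch 2 one of 0.01 for Mylk between HFLF and LF. The fits given in the results above used no pairing, so that samples shared only a number. HF and HFLF of batch 1 met the working rule for a pairing, which is not established. There the block also called 0 of 9 genes. Lmod1 had 3 counts or fewer in 7 of 11 samples of batch 1 and 6 of 12 of batch 2, and no change of it passed the test.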

Other observations

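Beside the smooth muscle genes, the transcripts of SRF and of the skeletal alpha actin gave steadier values. Srf was at 65.7 ± 5.89 CPM (SD, n = 4) in LF, 42 ± 3.95 CPM (SD, n = 3) in HF and 52.1 ± 7.19 CPM (SD, n = 4) in HFLF samples of batch 1, and at 71.9 ± 4.54 CPM (SD, n = 5) in HFLF samples of batch 2. Over both batches it fell from LF to HF (log2 fold change -0.55 ± 0.08 SE, edgeR adjusted p 0.000626) and rose from HF to HFLF (0.35 ± 0.08 SE, edgeR adjusted p 0.0119). Acta1 was at 26.1 ± 5.94 CPM (SD, n = 4), 9.38 ± 1.08 CPM (SD, n = 3) and 16.9 ± 3.74 CPM (SD, n = 4) in LF, HF and HFLF samples of batch 1. In batch 2 it was at 42.7 ± 11.5 CPM (SD, n = 4), 15.4 ± 2.37 CPM (SD, n = 3) and 31.2 ± 3.11 CPM (SD, n = 5). Over both batches Acta1 fell from LF to HF (-1.47 ± 0.14 SE, edgeR adjusted p 1.30e-06) and rose from HF to HFLF (0.94 ± 0.13 SE, edgeR adjusted p 0.00075). Its deviations had r = 0.32 with the mean of the 10 muscle genes, over 23 samples. Srf and Acta1 were singled out after their values were seen. Mylpf, the other striated muscle gene tested, was called higher in HF than in LF samples over both batches, where 17.8% of all genes were called.

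The proportions among the low genes were set against Myh11 in the samples with at least 50 Myh11 counts, 8 in batch 1 and 10 in batch 2. Des had a median of 38.5 counts per 100 Myh11 counts in batch 1 (29.4 to 49.2) and 23.1 in batch 2 (13 to 31.8). Tagln had 29.8 (19.5 to 45.8) and 18.5 (13.6 to 35.4), and Acta2 23.7 (18 to 34.4) and 22 (13 to 36.5). The ranges of the batches overlapped for each gene, and the differences between batches were not tested.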
